A study of Homo sapiens with 2 samples.

Results

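Pancreatic progenitor transcription factors were examined as a set of 9 genes, PDX1, NKX6-1, PTF1A, SOX9, GATA4, GATA6, ONECUT1, MNX1 and HES1, out of 55797 genes in each table of expression values. They were picked by name, from what they are known to do in the developing pancreas, but with earlier results of these data known. Each name matched a single gene in both libraries. The cells came from the established human embryonic stem cell line H1 and had been taken to Stage 6, the last stage of a stepwise pancreatic differentiation, where the culture is a mixture that includes insulin-expressing cells. There were 2 RNA-seq libraries of such cells, both poly-A selected. For the live library, RNA was taken from unfixed cells with the RNeasy kit. For the processed library, cells were fixed in 4% paraformaldehyde (PFA), permeabilized, stained with antibodies, put through the sorter with every cell kept, and their RNA was recovered with a modified RecoverAll kit. This is the MARIS procedure, and live cells serve as its reference. Each condition has 1 library, and whether both came from the same differentiation is not given in the sources used here. No difference between these libraries therefore has a replicate check, and no p-value is given. The procedure, the RNA kit and the culture cannot be told apart as sources of a difference. The paper also compared live and processed Stage 6 cells by qRT-PCR and by replicate microarrays, which are not used here. It reported that no gene differed consistently on the arrays.

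Values are FPKM, the fragments assigned to a gene per kilobase of exon, scaled to the sequenced fragments of the library. They take account of gene length and of sequencing depth. A comparison between the libraries still depends on how these are scaled to each other, and small differences changed with the 3 scalings tried below. The files give each FPKM a lower and an upper bound. For genes with 1 transcript in GENCODE release 44 at 10 FPKM or more, the half-width of these bounds divided by 2 standard errors of a fragment count (the square root of the count) had a median of 1.004 over 591 genes in the live and 1.002 over 589 genes in the processed library. The fragment number was read from the steps of low FPKM values, which gave 0.01002 FPKM kb per fragment in live and 0.0107 FPKM kb after processing. For such genes, which include PDX1 and SOX9, the bounds thus have the width of counting error within 1 library. Bounds of the other factors can be wider than that. By their longest transcripts ONECUT1 and HES1 had about 13020 and 13122 fragments in live cells, with half-widths of 4.04% and 1.79%. No bounds hold variation between preparations. Bounds that do not overlap are called separate here, and this was so for 71.8% of the 17326 genes that reached 1 FPKM in either library. FPKM summed to 510713 in live cells and 499398 after processing. Of 10 endocrine markers 9 reached 1 FPKM, INS and SST among them. So did 9 of 10 hepatocyte, 10 of 11 cartilage and 10 of 10 pluripotent cell markers. Fewer did so among cardiac and mesoderm markers (5 of 10) and motor neuron markers (4 of 10). The label of a mixed culture with insulin-expressing cells thus stands, with transcripts listed as markers of several other cell types beside it.

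During pancreas development PDX1 marks the whole pancreatic epithelium from the foregut stage on. PTF1A and NKX6-1 are expressed together in early multipotent progenitors and later part, with PTF1A retained in the acinar lineage and NKX6-1 in the trunk that gives rise to duct and endocrine cells. SOX9 and the Notch effector HES1 maintain the progenitor pool, GATA4 and GATA6 are zinc finger factors with shared roles in pancreas formation, ONECUT1 acts upstream of the endocrine programme, and MNX1 is needed for the dorsal bud and later for beta cells. None of the 9 is restricted to the pancreas, and in a mixed culture such as this one a transcript level is the product of how many cells express a gene and how much RNA each holds, which cannot be told apart in bulk RNA.

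Promoter sequence is shown for 2 of the genes, ONECUT1 because it differed most between the libraries and HES1 because its product is known to repress its own promoter through N-boxes. Each line is the 250 bases before the RefSeq start, 5′ to 3′ on the strand of the gene, found once by exact match in GRCh37. For ONECUT1 (chr15:53082534-53082783, minus strand), where the window lies inside the longer gene span of the files, capitals mark GGGCGG, the GC box, on either strand. For HES1 (chr3:193853687-193853936, plus strand) capitals mark CACNAG, the N-box, on either strand.
ONECUT1: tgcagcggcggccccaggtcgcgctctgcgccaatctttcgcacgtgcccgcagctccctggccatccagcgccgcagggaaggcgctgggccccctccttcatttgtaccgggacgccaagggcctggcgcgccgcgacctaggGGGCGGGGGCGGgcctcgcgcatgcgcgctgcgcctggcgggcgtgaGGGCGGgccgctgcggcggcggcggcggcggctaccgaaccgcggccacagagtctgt
HES1: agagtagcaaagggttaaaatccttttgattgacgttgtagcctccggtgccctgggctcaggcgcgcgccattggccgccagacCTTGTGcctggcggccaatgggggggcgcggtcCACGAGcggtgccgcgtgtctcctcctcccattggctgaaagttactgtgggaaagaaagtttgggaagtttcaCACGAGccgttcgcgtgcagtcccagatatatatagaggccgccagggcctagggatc

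The 3 N-boxes of HES1 and the 3 GC boxes of ONECUT1 are matches of letters and not shown to be bound. At least 1 N-box was present in 31.97% of 27305 RefSeq promoters (GRCh38.p14) of the same length, and at least 1 GC box in 42.3%. RefSeq promoters were found for 5 of the genes, HES1, NKX6-1, MNX1, ONECUT1 and GATA6, and not for PDX1, PTF1A, SOX9 and GATA4. The GC content of these 5 promoters ran from 59.2% in HES1, near the median of 58.0% over all promoters, to 78.8% in MNX1. A CCAAT box (CCAAT, either strand) was present in 5 of the 5 and in 33.0% of all promoters. The exact letters TATAAA, 1 form of the TATA box, were found on either strand in 0 of the 5 and in 11.1% of all promoters. Other forms of the TATA box were not searched, and the HES1 sequence above holds the run tatatata. The E-box (CANNTG), the site of basic helix-loop-helix factors, was present in 4 of the 5 and in 62.2% of all promoters. An N-box was also present in the promoter of GATA6. Some CANNTG and CACNAG matches can share bases, although the promoter of HES1 held no E-box.

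All 9 progenitor factors were expressed in both libraries at 10 FPKM or more. In live cells they ranged from 15.2 FPKM for MNX1 to 93.6 FPKM for HES1, a 6.14-fold span, and in processed cells the span from PTF1A to HES1 was 6.00-fold. By its live value MNX1 stood above 66.2%, and HES1 above 95.9%, of the 17326 genes that reached 1 FPKM in either library. ONECUT1 differed most between the libraries, at 55.7% of its live value in processed cells, whereas the other 8 factors lay between 86.1% (GATA6) and 112% (GATA4). The bounds were separate for 7 of the 9 factors, with GATA4, PDX1 and SOX9 higher and ONECUT1, GATA6, PTF1A and HES1 lower in processed cells. Of all genes that reached 10 FPKM in either library, 74.0% had separate bounds, 26.8% on the higher and 47.2% on the lower side, so the count for the factors is near that of genes in general. Among genes at 1 FPKM or more these shares were 28.1% and 43.7%, and they were 35.0% and 35.4% once the libraries were scaled to a median ratio of 1, which moved the median log2 ratio of these genes from -0.092 to 0.0021. After that scaling the bounds of PTF1A and HES1 overlapped and MNX1 was higher with separate bounds, while the other calls stood.

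No factor passed 2-fold on the scale log2((processed FPKM + 1) / (live FPKM + 1)), which is the log2 ratio used throughout. Past 2-fold were 5.01% of the 8515 genes at 10 FPKM or more and 12.8% of the 17326 genes at 1 FPKM or more. The log2 ratios of the 9 factors had a median of -0.070 and a median size of 0.11. Over genes at 10 FPKM or more the median was -0.093 and the median size 0.25, and over genes at 1 FPKM or more they were -0.092 and 0.34. Summed FPKM of the 9 factors was 405 in live and 394 in processed cells, 97.3% of the live sum, and without ONECUT1 it was 100.7%.

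**Figure D1:**
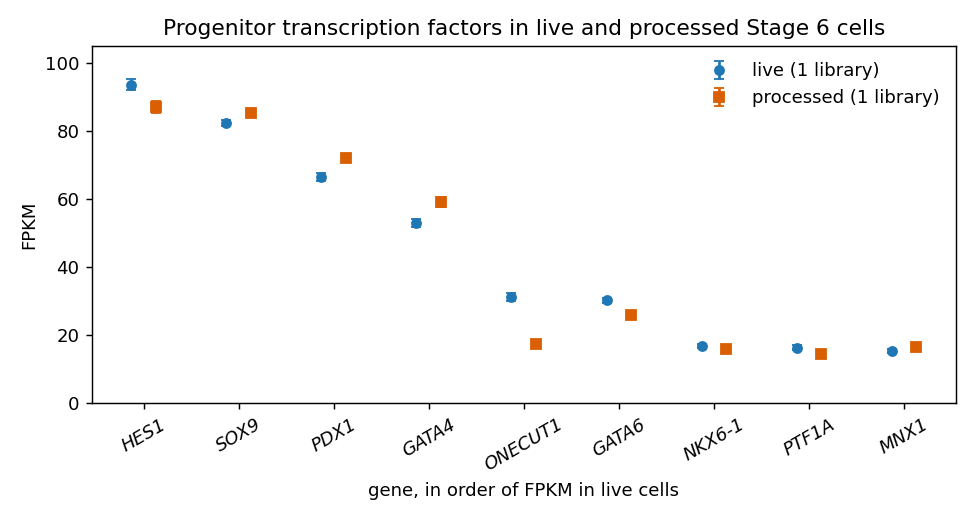
FPKM (linear axis) of the 9 progenitor factors in live cells (circles) and processed cells (squares), 1 library each, with the bounds given in the files as error bars. HES1, SOX9, PDX1 and GATA4 lead in both libraries, and ONECUT1 is the factor whose points lie farthest apart in proportion, at 31.2 and 17.4 FPKM.

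PDX1, a homeodomain factor of the early pancreatic epithelium and of beta cells (chromosome 13, 28494157 to 28500368 on GRCh37, plus strand), had 66.5 FPKM in live cells (bounds 65.4 to 67.6) and 72.1 FPKM in processed cells (70.9 to 73.3). The processed value was therefore 108% of the live one, a log2 ratio of 0.11, with an interval from the bounds of 0.068 to 0.16. SOX9, the HMG box factor of progenitors, ducts and cartilage (chromosome 17, 70117161 to 70122561, plus strand), had 82.4 FPKM in live cells (81.5 to 83.3) and 85.3 FPKM after processing (84.3 to 86.3). Its log2 ratio of 0.049 was the smallest in size of the 9, and its bounds were nonetheless separate, because about 30932 fragments in the live library gave bounds of 1.14% on each side.

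NKX6-1, the homeodomain factor of the trunk and of beta cells (chromosome 4, 85413061 to 85419603, minus strand), had 16.8 FPKM in live cells (16.3 to 17.3) and 16.0 FPKM in processed cells (15.4 to 16.5). PTF1A, a basic helix-loop-helix factor and the DNA-binding part of the acinar PTF1 complex (chromosome 10, 23481256 to 23483181, plus strand), had 16.3 FPKM in live cells (15.5 to 17.0) and 14.5 FPKM after processing (13.8 to 15.2). The bounds overlapped for NKX6-1 and were narrowly separate for PTF1A, at log2 ratios of -0.070 and -0.15. These factors, which mark the trunk and the tip of the branching epithelium, were thus at nearly the same level in the culture. The ratio of NKX6-1 to PTF1A was 1.03 in live cells (0.955 to 1.12) and 1.099 in processed cells (1.01 to 1.19), and the intervals overlapped. A ratio of 2 genes within a library does not depend on how the libraries are scaled to each other.

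MNX1, a homeodomain factor of the pancreas and of spinal motor neurons (chromosome 7, 156786745 to 156803239, minus strand), was the least abundant factor in live cells, at 15.2 FPKM (14.6 to 15.8). In processed cells it had 16.5 FPKM (15.7 to 17.3), and the bounds overlapped. HES1, the basic helix-loop-helix repressor downstream of Notch (chromosome 3, 193853934 to 193856521, plus strand), was the most abundant in both, at 93.6 FPKM in live cells (91.9 to 95.3) and 87.1 FPKM after processing (85.4 to 88.8). Its log2 ratio of -0.10 lay close to the median of all genes at 10 FPKM or more, and 48.9% of those genes had a ratio as low or lower. HES1 and SOX9 were separate in live cells, with a ratio of SOX9 to HES1 of 0.881 (0.855 to 0.907). In processed cells this ratio was 0.980 (0.950 to 1.01), and the bounds of HES1 and SOX9 overlapped.

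GATA4 and GATA6 lay on opposite sides, with separate bounds under each scaling tried. GATA4 (chromosome 8, 11534468 to 11617511, plus strand) had 53.0 FPKM in live cells (51.8 to 54.2) and 59.2 FPKM after processing (57.8 to 60.6), a log2 ratio of 0.16, the highest of the 9. GATA6 (chromosome 18, 19749404 to 19782491, plus strand) had 30.2 FPKM in live cells (29.5 to 30.8) and 26.0 FPKM after processing (25.4 to 26.6), a log2 ratio of -0.21. The ratio of GATA6 to GATA4 was accordingly 0.570 in live cells (0.545 to 0.595) and 0.439 in processed cells (0.419 to 0.460), and these intervals did not overlap. Among the 5 within-library ratios computed, this one differed most, being 0.771 times as large in the processed library. The ratio of PDX1 to NKX6-1 was 3.96 in live (3.78 to 4.15) and 4.52 in processed cells (4.30 to 4.75), also with separate intervals, whereas that of PDX1 to SOX9, at 0.807 (0.785 to 0.829) and 0.845 (0.821 to 0.869), overlapped.

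ONECUT1, also known as HNF6, carries a cut domain and a homeodomain and acts in pancreas and liver (chromosome 15, 53049186 to 53083273, minus strand). It had 31.2 FPKM in live cells (29.9 to 32.5) and 17.4 FPKM in processed cells (16.2 to 18.6). The interval from the bounds put the processed value between 50% and 62.0% of the live one, and no other factor had a difference as large in FPKM or in proportion. The log2 ratio was -0.81 (-0.96 to -0.66). Of the 8515 genes at 10 FPKM or more, 335 (3.93%) had a log2 ratio as low or lower. In live cells ONECUT1 and GATA6 had overlapping bounds, and in processed cells ONECUT1 lay below GATA6 with separate bounds, beside MNX1, whose bounds it overlapped.

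Several properties of ONECUT1 were set beside this difference. Its bounds were wider than those of GATA6, the factor of like level in live cells, at 4.04% against 2.16% of the FPKM on each side, and they widened to 6.67% in processed cells, the widest of the 9. A half-width below that of ONECUT1 was found for 56.6% of the 1535 genes at 25 to 40 FPKM in live cells. Its longest transcript in GENCODE release 44, of 4352 nt, is the longest of the 9, and its GC content, 47.4%, the lowest. Over genes at 10 FPKM or more, the median log2 ratio was -0.12 for longest transcripts of 3000 to 5000 nt and -0.17 for those of 5000 nt or more, against -0.022 from 1000 to 2000 nt. By GC content it was -0.11 from 45% to 50%, where ONECUT1 and HES1 lie, and -0.0027 at 60% or more, where PTF1A and MNX1 lie. Of the genes in the length class and the GC class of ONECUT1, 2.97% and 4.17% had a log2 ratio as low as that of ONECUT1. SOX9, GATA4, GATA6 and NKX6-1, which share its length class, lay between -0.21 and 0.16. The part of transcript length and of base composition in the value of ONECUT1 was not tested.

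**Figure D2:**
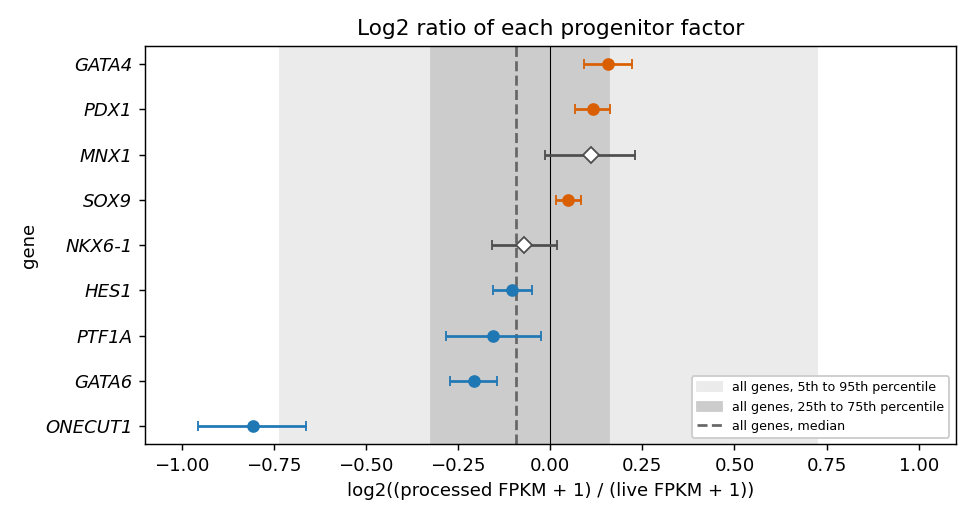
Log2 ratio of processed to live FPKM (pseudocount 1, horizontal axis) for each of the 9 factors, with the interval that the bounds allow, over bands for the 8515 genes at 10 FPKM or more. Filled points have separate bounds and open diamonds have overlapping bounds. ONECUT1, at -0.81, lies outside the band from the 5th to the 95th percentile (-0.73 to 0.72), and the other 8 factors lie within or at the edge of the band from the 25th to the 75th percentile (-0.32 to 0.16).

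The order of the factors was nearly the same in both libraries. In live cells HES1 was followed by SOX9, PDX1, GATA4, ONECUT1, GATA6, NKX6-1, PTF1A and MNX1, and the neighbours whose bounds overlapped were ONECUT1 and GATA6, NKX6-1 and PTF1A, and PTF1A and MNX1. Of the 36 pairs of factors, 33 had separate bounds in live cells and 32 in processed cells. Only 3 pairs changed order, ONECUT1 with GATA6, MNX1 with PTF1A and MNX1 with NKX6-1. The largest gap between neighbours was that of GATA6 over NKX6-1 in live cells, at 1.80-fold, and that of GATA4 over GATA6 in processed cells, at 2.28-fold.

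**Figure D3:**
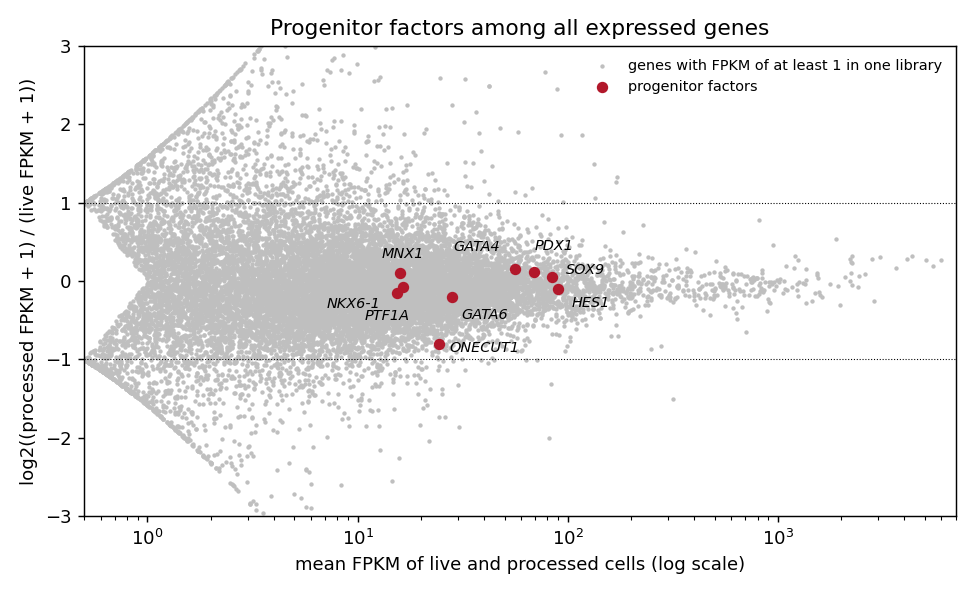
Log2 ratio of processed to live FPKM (vertical axis) against mean FPKM of the libraries (horizontal axis, log scale) for the 17326 genes that reached 1 FPKM in either library (grey) and the 9 progenitor factors (red). Dotted lines mark 2-fold, and 88 genes with a log2 ratio beyond 3 in size lie outside the plot. ONECUT1 lies nearest to the lower 2-fold line, and the other factors sit in the dense centre of the cloud.

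Genes next to the factors were examined because the files do not say whether the counting used strand. FLJ37644 spans the whole of SOX9 on the opposite strand, with 8.39 FPKM in live cells and 7.33 FPKM after processing. PDX1-AS1 shares 1385 nt with PDX1 on the opposite strand, at 0.431 and 0.301 FPKM. Both lay far below the factor they overlap, and their bounds overlapped between the libraries. Reads of overlapping genes on opposite strands cannot be told apart without strand. RP11-627G18.3 starts 474 nt before GATA6 and runs the other way. It had 13.1 FPKM in live cells (10.4 to 15.8) and 5.65 FPKM after processing (4.89 to 6.41), and was thus lower than in live cells, as GATA6 was, but at 43.2% of its live value. RP5-1121A15.1, 259 nt from MNX1 on the opposite strand, had 1.19 FPKM in live cells (0.952 to 1.44) and 3.73 FPKM after processing (3.29 to 4.17), while the bounds of MNX1 itself overlapped. C8orf49, 1253 nt beyond GATA4, had 1.23 and 1.52 FPKM with overlapping bounds. RP11-627G18.1 and RP11-627G18.2, RP5-1121A15.4 and RP11-135A1.2, which overlap GATA6 or MNX1 or lie near HES1, ranged from 0 to 1.08 FPKM, with overlapping bounds, and a U6 gene within GATA6 was listed at 0. No other gene lay within 5 kb of NKX6-1, PTF1A or ONECUT1.

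Closest relatives of the factors were read next, as a list of 16 paralogues, of which 13 reached 1 FPKM. Bounds were separate and higher in processed cells for 4, separate and lower for 6, and overlapping for 3, with a median log2 ratio of -0.12, where 28.1% of all genes at this level were higher and 43.7% lower. After scaling to a median ratio of 1, and also to ACTB, 4 were higher and 4 lower, with medians of -0.025 and -0.057. NKX6-2, the nearest relative of NKX6-1, had 9.74 FPKM in live cells (9.08 to 10.4) and 22.04 FPKM in processed cells (21.0 to 23.1). It was the paralogue past 2-fold, at a log2 ratio of 1.102. NKX6-3, by contrast, had 15.8 and 15.4 FPKM, with overlapping bounds as for NKX6-1. The other ONECUT genes were less abundant than ONECUT1 and also lower in processed cells, ONECUT2 at 8.79 and 7.16 FPKM and ONECUT3 at 6.51 and 5.68 FPKM, both with separate bounds. Their log2 ratios of -0.26 and -0.17 were smaller in size than that of ONECUT1. Among the HES genes, HES4 had 47.8 FPKM in live cells and 43.8 FPKM after processing with overlapping bounds, and HES6, which opposes HES1, had 31.4 and 38.5 FPKM with separate bounds. SOX10, a neural crest factor, had 10.5 and 7.48 FPKM, a log2 ratio of -0.44, the lowest of the expressed paralogues with the pseudocount of 1. Without a pseudocount HES3 was lower, at 69.4% of its live value against 71.3% for SOX10.

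Proteins that bind DNA or regulators together with the factors made up a list of 16 genes, and 16 of these reached 1 FPKM. Bounds were separate and higher for 5, separate and lower for 7 and overlapping for 4. Over all genes at this level, 28.1% were higher and 43.7% lower, so these counts are near those of genes in general. The median log2 ratio of the list was -0.050, which turned to 0.049 (6 higher, 4 lower) after scaling to a median ratio of 1. It was 0.017 after scaling to ACTB. TCF3, an E protein that pairs with PTF1A, was the most abundant at 136 FPKM in live cells (133 to 139) and 147 FPKM after processing (143 to 151). RBPJ, the Notch effector that also serves in the early PTF1 complex, had 42.5 and 40.2 FPKM with overlapping bounds. RBPJL, which takes its place in mature acinar cells, had the lowest ratio, at 1.63 FPKM in live cells (1.42 to 1.85) and 0.365 FPKM after processing (0.319 to 0.412). PBX2, of a family that pairs with PDX1, had 74.99 and 68.2 FPKM, and ZFPM1, a cofactor of GATA proteins, 19.2 and 23.2 FPKM. ZFPM1 had the highest log2 ratio of the list with the pseudocount of 1, but in plain FPKM its relative ZFPM2 was marginally ahead, at 121.7% of live against 120.7%.

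Other regulators of pancreas progenitors and foregut numbered 20, and 20 reached 1 FPKM. For 13 the bounds were separate and lower in processed cells, for 1 separate and higher, and for 6 overlapping, where 43.7% and 28.1% of all genes at this level were lower and higher. The lower count depended on scaling, at 8 lower and 2 higher after scaling to a median ratio of 1, 11 and 1 after scaling to ACTB, and 13 and 1 at equal FPKM sums. The median log2 ratio was -0.14, against -0.092 over all genes at 1 FPKM or more, and no gene passed 2-fold. HNF4A, the nuclear receptor of liver and gut epithelium, had the lowest ratio, at 22.9 FPKM in live cells (21.99 to 23.8) and 14.1 FPKM after processing (13.4 to 14.7), which is 61.4% of the live value. FOXA1, a pioneer factor of endoderm, had 126 FPKM in live cells and 98.4 FPKM after processing. SOX4 was the most abundant of the list, at 172 and 156 FPKM, and MYC was the gene on the higher side, at 9.52 and 11.4 FPKM.

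**Figure D4:**
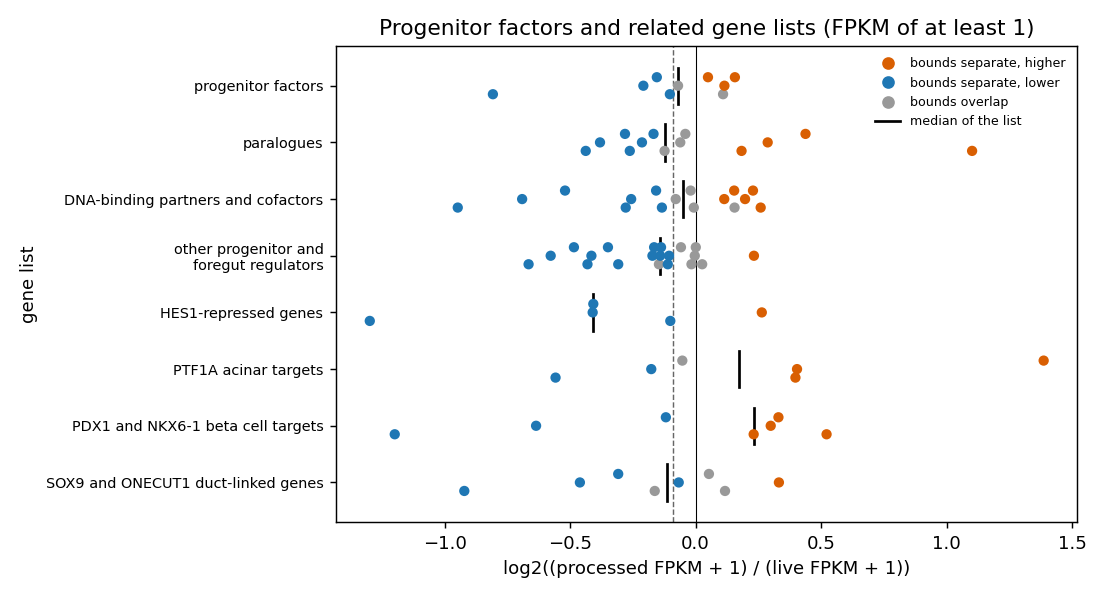
Log2 ratio of processed to live FPKM (pseudocount 1, horizontal axis) for the 9 progenitor factors and for the genes of 7 related lists at 1 FPKM or more, coloured by whether the bounds were separate. Black bars are list medians and the dashed line is the median of all genes at this level (-0.092). The list of other progenitor and foregut regulators has 13 of its 20 genes on the lower side with separate bounds as deposited, and 8 after scaling to a median ratio of 1.

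Genes that the factors are known to control, and duct genes linked to SOX9 and ONECUT1, were read in the same way. Of 6 genes repressed by HES1, 5 reached 1 FPKM, 1 higher and 4 lower with separate bounds, with a median log2 ratio of -0.41. Of all genes at this level 28.1% were higher and 43.7% lower. Under each of the 3 scalings tried, 1 of these genes was higher and 3 were lower. NEUROG3, the inducer of endocrine fate, had 10.02 FPKM in live cells (9.44 to 10.6) and 7.29 FPKM after processing (6.77 to 7.81). CDKN1C and CDKN1B, inhibitors of the cell cycle, had 89.2 and 107 FPKM and 25.2 and 23.4 FPKM. The related inhibitor CDKN1A was past 2-fold, at 5.65 FPKM in live cells (5.19 to 6.11) and 1.70 FPKM after processing (1.51 to 1.90).

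Digestive enzymes and other acinar genes under PTF1A were mostly scarce, with 6 of 11 at 1 FPKM or more. Bounds were separate and higher for 3, separate and lower for 2 and overlapping for 1, and the median log2 ratio was 0.17. After scaling to a median ratio of 1 these counts were 3 higher and 1 lower. Over all genes at this level the shares were 28.1% higher and 43.7% lower. CPA1, a carboxypeptidase that appears early in the acinar lineage, had 10.4 and 9.98 FPKM with overlapping bounds. CEL, a lipase, had 2.13 and 1.13 FPKM. CTRB1, a chymotrypsinogen with a near-identical copy, CTRB2, had 0.478 FPKM in live cells (0.303 to 0.653) and 2.87 FPKM after processing (2.32 to 3.41), and is uncertain because reads of such copies can be divided between them. CTRB2 was listed at 0 in both libraries, as was PNLIP.

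Of 12 beta cell genes under PDX1 and NKX6-1, 7 reached 1 FPKM, 4 higher and 3 lower with separate bounds, with a median log2 ratio of 0.23. Each of the 3 scalings left 4 higher and 2 lower. Shares over all genes at this level were 28.1% higher and 43.7% lower. INS had 98.3 FPKM in live cells (95.2 to 101.4) and 121 FPKM after processing (117 to 125). PAX4, a repressor active in endocrine progenitors, had the highest ratio, at 9.04 and 13.4 FPKM, and PCSK1, a prohormone convertase, the lowest, at 3.03 FPKM in live cells (2.59 to 3.47) and 0.754 FPKM after processing (0.672 to 0.836). MAFA, a factor of mature beta cells, was at 0.119 FPKM in live cells and listed at 0 in processed cells. Of 10 duct-linked genes listed for SOX9 and ONECUT1, 8 reached 1 FPKM, 1 higher and 4 lower with separate bounds and 3 overlapping, with a median log2 ratio of -0.12. After scaling to a median ratio of 1 the duct-linked genes were 4 higher and 3 lower, and after scaling to ACTB 3 and 3. KRT19 was by far the most abundant, at 543 and 518 FPKM. ANXA4 had 79.3 and 63.8 FPKM, SPP1 had 7.12 and 3.28 FPKM, and CFTR had 1.12 and 1.66 FPKM.

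Likeness in level was measured as the distance between genes in log2(FPKM + 1) over the 2 libraries, within the 151 genes of the related lists. For MNX1 the nearest was TCF4, at a distance of 0.051, and for NKX6-1 and PTF1A it was NKX6-3, at 0.097 and 0.084. GATA4 was nearest to FOXA2 (0.22), PDX1 to PBX2 (0.19), SOX9 also to PBX2 (0.35) and HES1 to CDKN1C (0.31). ONECUT1 was nearest to ACTC1 (0.19), at 28.4 and 19.3 FPKM. With 2 values per gene such likeness is common: between 21 genes (MNX1) and 282 genes (SOX9) of the whole table lay as close to the factor as the gene named.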

How the data were processed

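Read pairs, 80 nt each, had been mapped by the authors with STAR 2.2.0c on GRCh37, using an earlier GENCODE release, and deposited as FPKM per gene with bounds for 1 live and 1 processed library. The submitters' notes name Cufflinks 2.0.2, and the paper names Cuffdiff. The level of the bounds and the use of strand are not given in the sources used here.

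Libraries were joined by gene identifier, and starts were written 1-based, which matched GENCODE release 44 on GRCh37 for 70.3% of the matched genes. Log2 ratios used a pseudocount of 1, and separate bounds and 2-fold were counted at an FPKM of at least 1 and of at least 10. Transcript length, GC content and strand came from GENCODE release 44 and promoters from RefSeq. Fragment steps used transcripts of more than 300 nt, less 170 nt. The members and lists were chosen with earlier results of these data known. Named from each list were the 2 most abundant genes in live cells, the highest and the lowest ratio, with neighbours within 5 kb, nearest genes in level, GAPDH and ACTB as scaling references, and NEUROG3. ONECUT2, ONECUT3, HES3, RBPJ, ZFPM2, MAFA, PNLIP, CTRB2, FGB, ACAN, CHAT, LHX3, PPY and POU5F1 fall outside this rule and were chosen after their values were seen. Calculations were tested on simulated data. Python 3.11.15, numpy 2.4.6, pandas 2.3.3 and matplotlib 3.10.9 were used. Some genes that this rule names are not reported here.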

Additional observations from a re-analysis of the deposited data

How the results depend on the processing

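Alternatives covered the pseudocount (0.1 or none), 3 scalings, the FPKM filter (10 or none) and status OK. Of 115 recomputed values, 103 stayed within the spread that the bounds give or, for counts, within 1.5 times the count as reported. The other 12 moved further, each under median-ratio or ACTB scaling, and no factor with separate bounds changed sign. The filter and status settings could not move a value, because all 9 factors had 10 FPKM or more and status OK in both libraries. Calls of separate bounds do not use the pseudocount. Separate bounds were found for 6 factors in place of 7 under median-ratio and ACTB scaling. The median log2 ratio of the 9 factors was 0.025 once both libraries were brought to a median ratio of 1, in place of -0.070. ONECUT1 and GATA6 were lower, and PDX1, SOX9 and GATA4 higher, with separate bounds under every alternative run. PTF1A and HES1 had overlapping bounds after scaling by the median ratio and after scaling to ACTB (1970 FPKM in live cells and 1879 FPKM after processing, with GAPDH at 2479 and 2353 FPKM), and PTF1A also after scaling to equal FPKM sums. MNX1 had separate bounds, higher in processed cells, under all 3 scalings. NKX6-1, whose bounds overlapped, was at 0.025 after scaling by the median ratio. That scaling put 35.0% of genes higher and 35.4% lower with separate bounds. Scaling of the related gene lists was added after seeing the data. The bounds describe a single library, and with 1 library per condition the spread between preparations is unknown. No paired analysis was possible because each condition has 1 library.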

Other observations

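Several of the factors are also used by other tissues, and markers of those tissues were read as lists. Hepatocyte genes were abundant. SERPINA1 had 1496 FPKM in live cells and 1579 FPKM after processing, AFP had 460.1 and 550.4 FPKM, and APOA2 had 84.5 and 125 FPKM. Of 10 hepatocyte markers, 9 reached 1 FPKM, 5 higher and 2 lower with separate bounds, with a median log2 ratio of 0.23. Of all genes at this level 28.1% were higher and 43.7% lower, and under each of the 3 scalings 7 of the hepatocyte markers were higher and 2 lower. Those lower were APOB, the structural protein of lipoproteins, at 7.47 and 5.84 FPKM, and FGB, a fibrinogen chain, at 142 and 117 FPKM.

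Cartilage genes under SOX9 had 10 of 11 members at 1 FPKM or more, 3 higher and 2 lower with separate bounds, with a median log2 ratio of 0.11. Under each of the 3 scalings 4 cartilage genes were higher and 2 lower. Beside this and the next marker lists, 28.1% of all genes at this level were higher and 43.7% lower. COL2A1 had 442 FPKM in live cells and 392 FPKM after processing, COL9A3 had 53.6 and 69.7 FPKM, SOX6 had 9.04 and 5.15 FPKM, and CHAD had 0.220 and 1.25 FPKM, whereas ACAN, the main cartilage proteoglycan, had 1.42 and 1.84 FPKM. Motor neuron markers, a check on MNX1 and NKX6-1, had 4 of 10 members at 1 FPKM or more, 1 higher and 2 lower with separate bounds, with a median log2 ratio of -0.33. NEFM had 18.3 and 12.3 FPKM and STMN2 had 14.8 and 10.2 FPKM, both general neuronal genes, while OLIG2 had 0.658 and 1.36 FPKM, and CHAT and LHX3 had 0.118 and 0.134 FPKM in live cells and were at or next to 0 after processing. Of 10 cardiac and mesoderm markers, which share GATA4 and GATA6, 5 reached 1 FPKM, 3 higher and 1 lower with separate bounds, with a median log2 ratio of 0.25. Counts of the motor neuron and of the cardiac markers were the same under each of the 3 scalings. ACTC1 had 28.4 and 19.3 FPKM, HAND1 had 6.91 and 8.40 FPKM, and TNNT2 had 2.76 and 5.40 FPKM.

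Endocrine markers were in place, with 9 of 10 at 1 FPKM or more, 4 higher and 2 lower with separate bounds, and a median log2 ratio of 0.13. Each of the 3 scalings put 5 endocrine markers higher and 2 lower. All genes at this level were 28.1% higher and 43.7% lower. SST had 243 and 266 FPKM, GHRL had 32.1 and 43.3 FPKM, CHGB had 6.56 and 3.16 FPKM, and PPY was listed at 0 in both libraries. CHGA had 1794 FPKM in live cells, and its processed value of 1741 FPKM carries the status FAIL. All 10 pluripotent cell markers reached 1 FPKM in either library, 1 higher and 6 lower with separate bounds, with a median log2 ratio of -0.18. They were 2 higher and 5 lower after scaling to a median ratio of 1, and 2 and 6 after scaling to ACTB. LIN28A had 119 and 88.7 FPKM, SOX2 had 52.4 and 47.1 FPKM, and TDGF1 had 5.54 and 1.46 FPKM. POU5F1 had 7.92 and 8.53 FPKM. NANOG, at 1.27 FPKM in live cells and 7.34 FPKM after processing, has many pseudogene copies and is uncertain.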
